A study of Mus musculus with 18 samples.

Results

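The mitochondrial genome of the mouse carries 37 genes, and all 37 were present, by a symbol that starts with mt-, among the 54532 genes of the deposited count table. They comprised 13 protein genes, 2 rRNA genes and 22 tRNA genes. The 13 protein genes and the 2 rRNA genes passed the filter on low counts and were tested. The 22 tRNA genes did not.

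The libraries were made from whole jejunum, the middle stretch of the small intestine, of C57BL/6 mice aged 8 to 12 weeks, with no other allele or agent named. FLASH libraries (n = 7) came from mice given 1 fraction of 15 Gy to the whole abdomen at an ultra-high dose rate. CONV libraries (n = 5) came from mice given 15 Gy at a conventional dose rate, and both groups were sampled 16 h later. Control libraries (n = 6) came from unirradiated mice. The labels do not state that each library is a separate mouse, so p-values measure the spread between libraries, which may be technical. In a whole tissue, fewer cells of a type and less RNA per cell cannot be told apart.

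Mitochondrial DNA is a small circle that is transcribed from both strands into long precursors, which are then cut, mostly at the tRNAs, into rRNAs, mRNAs and tRNAs. Its protein genes encode core subunits of respiratory complexes I, III and IV and of the ATP synthase (complex V), while the other subunits of these complexes, and all of complex II, are encoded in the nucleus. The rRNAs form the core of the mitochondrial ribosome, which translates only these mRNAs. Absorptive enterocytes, the main cells of the jejunal villus, rely on mitochondria for the energy that nutrient uptake takes.

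Total estimated counts per library, in units of 1e6 counts, were 23.1 to 30.2 in FLASH, 19.9 to 27.0 in CONV and 24.3 to 27.8 in control. Log2 expression also varied with transcript length from library to library, and this length slope was lowest in CONV 6 (-0.32 log2 per doubling of length), control 6 (-0.31) and FLASH 1 (-0.25). Control 2 had the highest slope (0.22). All 12 absorptive enterocyte markers were detected, while the pancreas markers, a check for neighbouring tissue, summed to at most 0.851 CPM (counts scaled to a common library total by TMM factors) in any library, with Pnlip and Cpa1 at 0 throughout.

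Several of these genes have near-identical copies in the nuclear genome, annotated as pseudogenes, that took up reads in the deposited table. Of 15 such copies in the count table, 7 lie side by side on the minus strand of chromosome 1 (mm10). The copies of mt-Co2 (Gm28661), mt-Atp6 (Gm10925), mt-Co3 (Gm28437), mt-Nd4l (Gm10222) and mt-Nd4 (Gm28439) were 100% identical to the mitochondrial gene over 681, 678, 783, 294 and 876 aligned bases. A 100-base read from such a stretch matches both places equally. The copies of mt-Nd3 (Gm28438) and mt-Co1 (Gm29216) each had 1 mismatch, over 345 and 483 aligned bases. The substitutions were T3C in Gm28438 and A1066T in Gm29216, with the mitochondrial base first and positions counted from 1 at the 5′ end of the mitochondrial gene. Sequences here are from the GENCODE annotation of mm10. The stretches around these bases are shown because they are all that separates each pair over its aligned length, with the differing base in capitals, at chrM:9459-9486 on the plus strand, chr1:24613092-24613119 on the minus strand, chrM:6390-6418 on the plus strand and chr1:24616160-24616188 on the minus strand:
mt-Nd3: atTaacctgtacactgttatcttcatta
Gm28438: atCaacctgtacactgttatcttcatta
mt-Co1: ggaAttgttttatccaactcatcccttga
Gm29216: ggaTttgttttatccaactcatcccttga

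The genes of the circle are also packed against each other. The reading frames of mt-Atp8 and mt-Atp6 share 43 bases, mt-Nd4l and mt-Nd4 share 7, and mt-Nd5 and mt-Nd6 overlap by 14 on opposite strands, so reads there can fall to either gene where strand does not separate them. The stretch around the first overlap (chrM:7907-7989, plus strand) is shown with the shared bases in capitals, since mt-Atp8 is named in the results below and mt-Atp6 begins inside it:
mt-Atp8/mt-Atp6: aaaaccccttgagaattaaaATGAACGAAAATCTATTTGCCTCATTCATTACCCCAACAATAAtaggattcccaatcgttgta

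In 3 protein genes the annotated frame ends in a lone T, which the poly(A) tail completes to a stop codon. Their last 31 bases, with that base in capitals, lie at chrM:9360-9390, chrM:11514-11544 and chrM:15258-15288 on the plus strand and are shown as the ends that are read next to the tail:
mt-Co3: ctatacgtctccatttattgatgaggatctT
mt-Nd4: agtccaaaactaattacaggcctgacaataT
mt-Cytb: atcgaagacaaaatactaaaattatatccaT

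Over all libraries, the copy held 96.8% of the combined counts of mt-Nd3 and its copy, 91.3% for mt-Co2, 87.6% for mt-Co3, 82.7% for mt-Atp6 and 73.8% for mt-Nd4l. For mt-Co1 it was 8.30% and for mt-Nd4 0.742%. For the other members, copies held at most 0.0198% or none was found. The split also differed between libraries of 1 group. The copy share of mt-Co2 was 60.5% in the lowest FLASH library against a FLASH median of 96.0%, 59.0% in the lowest CONV library against a median of 95.2%, and 70.0% in the lowest control library against a median of 95.4%. For mt-Nd4l it ranged from 46.1 to 85.0% in FLASH, from 63.0 to 82.1% in CONV and from 54.9 to 86.2% in control. Values of these 5 genes are therefore given below also with the counts of their copies added, which sets aside how reads were divided between the places.

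**Figure D1:**
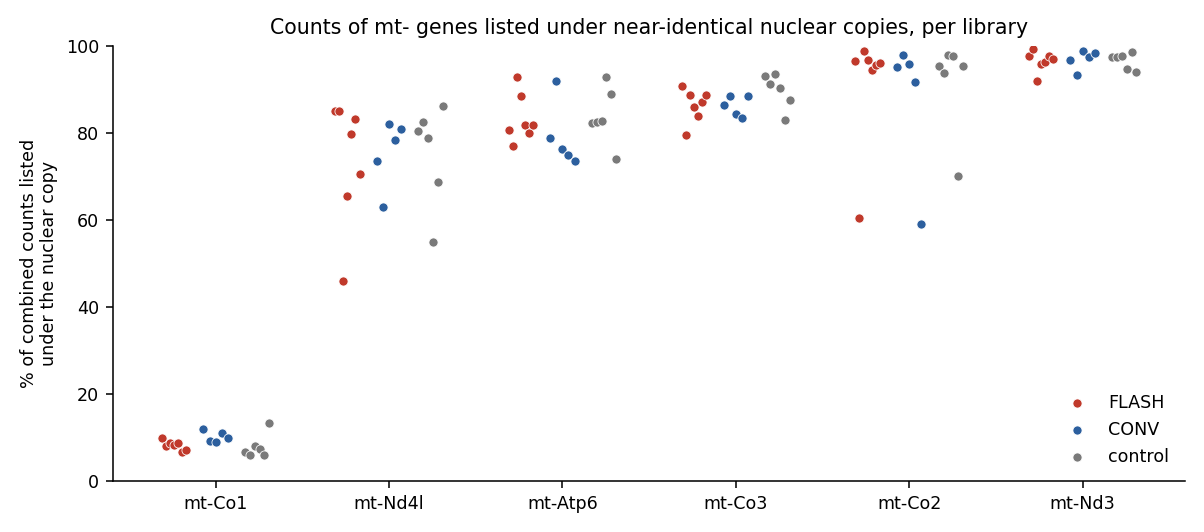
Percent of the combined counts of a mitochondrial gene and its nuclear copies that the deposited table lists under the copies, for 6 genes, with 1 point per library (FLASH n = 7, CONV n = 5, control n = 6, left to right within each gene). Copies held 8.30% over all libraries for mt-Co1 and 96.8% for mt-Nd3, and 1 library of each group stood low for mt-Co2, at 60.5, 59.0 and 70.0%.

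The share of all counts that fell in the 37 genes was higher in most FLASH libraries than in CONV libraries. It was 5.22 ± 1.11% in FLASH (SD, n = 7), with a lowest value of 3.61%, a median of 4.95% and a highest of 6.79%. The CONV libraries held 3.53, 3.20, 3.87, 3.72 and 3.39% (3.54 ± 0.264%, n = 5). In control it was 4.67 ± 1.97% (n = 6), from 2.30% in control 6 over a median of 4.63% to 7.91% in control 2, so the control range enclosed every library of both irradiated groups. FLASH and CONV overlapped in 1 FLASH library, FLASH 1, which lay below the highest CONV libraries. With the copies added the share was 8.00 ± 1.49% in FLASH (6.18 to 10.01%), 5.60 ± 0.375% in CONV (5.18 to 6.02%) and 7.21 ± 2.68% in control (4.25 to 11.7%), and FLASH and CONV no longer overlapped. The spread was widest in control and narrowest in CONV under both ways of counting. Counting error was small beside it, since the widest 95% Wilson interval of a library's share spanned 0.0210 percentage points. As a sum over chosen genes, the share was not tested.

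**Figure D2:**
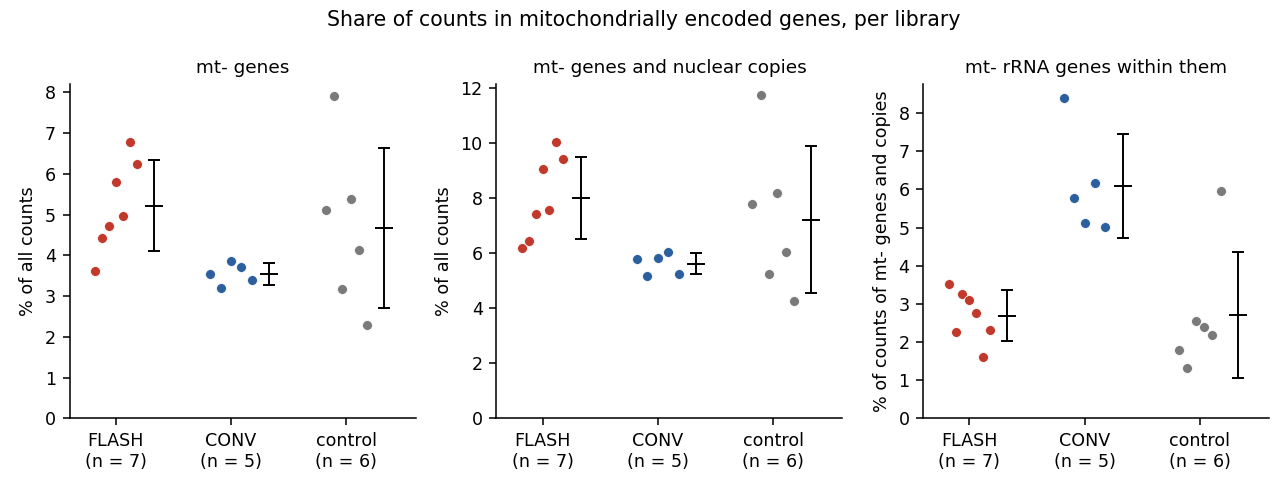
Percent of all counts in the mt- genes (left), in the mt- genes and their nuclear copies (middle), and the rRNA genes mt-Rnr1 and mt-Rnr2 as a percent of the counts of mt- genes and copies (right), with 1 point per library and the mean ± SD at the right of each group. With copies, the 7 FLASH libraries (6.18 to 10.01%) lay above the 5 CONV libraries (5.18 to 6.02%), and the rRNA share of the CONV libraries (5.02 to 8.38%) lay above every FLASH library (1.61 to 3.51%).

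The ribosomal RNAs stood apart from the protein genes. mt-Rnr1 (chrM:70-1024) is the 12S rRNA of the small subunit, and mt-Rnr2 (chrM:1094-2675) is the 16S rRNA of the large subunit. Their levels are those in a library made for mRNA. mt-Rnr1 was at 332, 750 and 1046 CPM in the lowest, median and highest FLASH library, at 1773, 966, 1101, 1451 and 795 CPM in the CONV libraries, and at 391, 420 and 735 CPM in the lowest, median and highest control library. Every CONV library lay above every control library, whereas FLASH overlapped both. mt-Rnr2 was at 1205, 1611 and 2173 CPM in the lowest, median and highest FLASH library, at 3269, 1733, 1800, 2943 and 1723 CPM in the CONV libraries, and at 683, 802 and 1655 CPM in the lowest, median and highest control library. Again the CONV libraries lay above all controls, the closest being control 6.

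In CONV against control, both rRNA genes rose and no protein gene passed the test, which makes 2 of the 15 tested members called. Of all 16257 genes tested, 22.2% were called in this comparison (edgeR quasi-likelihood test, Benjamini-Hochberg adjusted p under 0.05), 10.2% higher and 12.0% lower. mt-Rnr1 rose 2.42-fold, a log2 fold change of 1.27 ± 0.29 (SE, adjusted p = 0.00560), and mt-Rnr2 2.35-fold, 1.23 ± 0.25 (adjusted p = 0.00255). Both calls held in every alternative run that tested these genes, leave-one-out included, with log2 fold changes of 1.01 to 1.42 for mt-Rnr1 and of 1.02 to 1.45 for mt-Rnr2. These were also the 2 members whose CONV libraries all lay above the controls, which held for 5.46% of all genes tested. In FLASH against control mt-Rnr2 rose as well, by 0.78 ± 0.23 (adjusted p = 0.0137), and mt-Rnr1 was at 0.46 ± 0.27 (adjusted p = 0.190). In FLASH against CONV mt-Rnr1 fell, at -0.81 ± 0.28 (adjusted p = 0.0465), while mt-Rnr2 was at -0.45 ± 0.24 (adjusted p = 0.192), or, with library totals, at -0.59 (adjusted p = 0.0402). That mt-Rnr1 call was borderline. Among the leave-one-out fits it held only without control 6, CONV 7, FLASH 4 or FLASH 5, while leaving out any other 1 of the libraries ended it (adjusted p up to 0.147). It was also lost in 7 of 12 other alternatives, among them an offset for transcript length and DESeq2 size factors in edgeR.

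The share of the mitochondrial counts, copies included, that was rRNA was 2.69 ± 0.667% in FLASH (1.61 to 3.51%), 6.09 ± 1.36% in CONV (8.38, 5.77, 5.12, 6.16 and 5.02%) and 2.70 ± 1.65% in control (1.31 to 5.95%). FLASH lay wholly below CONV, and 5 of the 6 control libraries were within 1.31 to 2.56%. The 6th, control 6, was at 5.95%, among the CONV libraries. The ratio of mt-Rnr2 to mt-Nd1, the next protein gene on the same strand, was also lower in every FLASH library than in every CONV library, with 0.146 to 0.343 in FLASH, 0.558 to 1.05 in CONV and 0.135 to 0.668 in control. The length slope moved with this share in part. Within FLASH and within control, the library with the lowest slope had the highest share, and that with the highest slope the lowest share. These were FLASH 1 (slope -0.25, share 3.51%) and FLASH 7 (0.20, 1.61%), and control 6 (-0.31, 5.95%) and control 2 (0.22, 1.31%). In CONV, CONV 6 (-0.32) had 6.16%, CONV 2 (-0.22) 8.38% and CONV 7 (-0.15) 5.02%. CONV 3 and CONV 5, with slopes of 0.03 and 0.04, had 5.77 and 5.12%. The part of the length slope in the rRNA share was not tested. With an offset for transcript length, mt-Rnr1 and mt-Rnr2 still rose in CONV against control, by 1.01 (adjusted p = 0.0163) and 1.02 (adjusted p = 0.00216). In FLASH against CONV, the same offset ended the call of mt-Rnr1, and no member was called as lower.

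**Figure D3:**
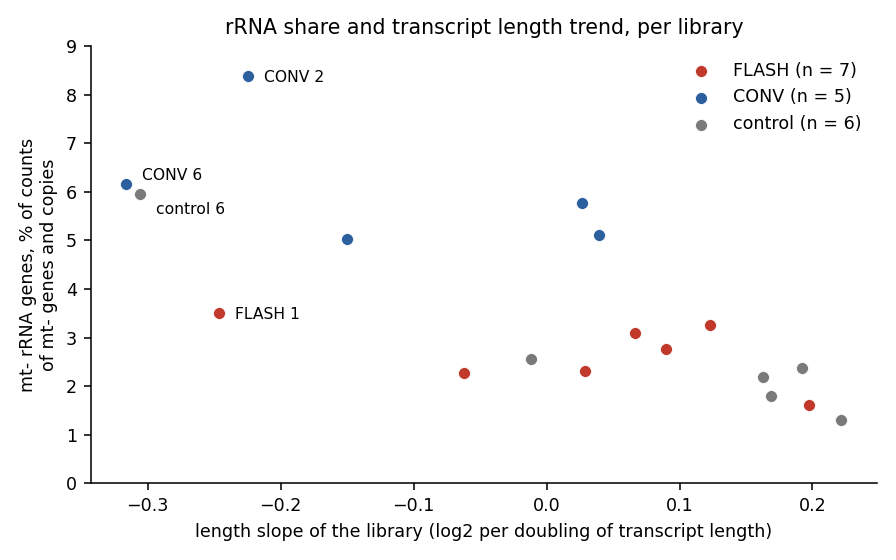
Percent of the counts of mt- genes and their copies that fell in the rRNA genes, on the vertical axis, against the length slope of the library (log2 expression per doubling of transcript length), with 1 point per library. CONV libraries lay at 5.02 to 8.38% over slopes of -0.32 to 0.04, FLASH libraries at 1.61 to 3.51%, and control 6 stood apart from the other controls at 5.95% and a slope of -0.31.

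In FLASH against CONV, 7 of the 13 protein genes rose and none fell, and with the copies added 10 rose and none fell, which with mt-Rnr1 makes 8 and 11 of the 15 tested members called. The share called among all genes tested was 19.8% with either counting, with 9.88% higher and 9.91% lower as deposited, and 9.9% higher and 9.9% lower with the copies added. The median log2 fold change of the 13 was 0.88, against -0.02 over all genes tested. With library totals in place of TMM factors, the median of all genes was at -0.18 and 4 of the 13 were called as higher, mt-Nd1, mt-Atp8, mt-Nd5 and mt-Nd6 (5 with the copies added, mt-Atp6 being the other). Under totals, 911 of all genes were higher and 2816 lower, against 1606 and 1611 with TMM factors.

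Complex I, which oxidises NADH, has 7 of these subunits, and 5 of them were higher in FLASH than in CONV as deposited, 6 with the copies added. mt-Nd1 (chrM:2751-3707), a membrane-arm subunit next to the quinone site, was at 4989, 6383 and 8274 CPM in the lowest, median and highest FLASH library and at 3108, 2557, 3224, 3948 and 2939 CPM in the CONV libraries. All FLASH libraries were above all CONV libraries, and mt-Nd1 rose by 1.10 ± 0.21 (adjusted p = 0.00185), a 2.14-fold difference. mt-Nd5 (chrM:11742-13565), the distal membrane subunit, was at 2496, 4438 and 6831 CPM in the lowest, median and highest FLASH library and at 1634, 1980, 2511, 2048 and 1546 CPM in the CONV libraries. Only FLASH 1, at 2496 CPM, reached the CONV range, and mt-Nd5 rose by 1.24 ± 0.34 (adjusted p = 0.0163). mt-Nd6 (chrM:13552-14070), the one protein gene on the minus strand, was at 9.99, 15.4 and 16.2 CPM in the lowest, median and highest FLASH library and at 9.16, 4.19, 9.68, 5.55 and 7.41 CPM in the CONV libraries. The groups did not overlap, though FLASH 6 lay close to the highest CONV library, and mt-Nd6 rose by 1.02 ± 0.26 (adjusted p = 0.0109).

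mt-Nd2 and mt-Nd4, both proton-pumping subunits of the membrane arm, rose by 0.88 ± 0.26 (adjusted p = 0.0223) and by 1.01 ± 0.34 (adjusted p = 0.0427). These calls were less firm. That of mt-Nd2 was lost without CONV 2, CONV 3 or CONV 7 (adjusted p up to 0.0555), and that of mt-Nd4 without CONV 2, 3, 6 or 7 or FLASH 5, 6, 7 or 9 (up to 0.0977). The call of mt-Nd4 as deposited was also lost with limma-voom and with limma-trend on the authors' log2 values. mt-Nd4l was at 1.37 ± 0.56 as deposited (adjusted p = 0.0930) and rose by 1.15 ± 0.38 with its copy (adjusted p = 0.0383), a call that was lost without the same 8 libraries as that of mt-Nd4 (up to 0.0916). mt-Nd3, most of whose reads were listed under the copy, was at 0.46 ± 0.51 as deposited (adjusted p = 0.569) and at 0.30 ± 0.22 with the copy (adjusted p = 0.370).

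mt-Cytb (chrM:14145-15288), cytochrome b of complex III, was at 4182, 6629 and 8672 CPM in the lowest, median and highest FLASH library and at 3588, 3357, 4214, 4243 and 3274 CPM in the CONV libraries. Only FLASH 1, at 4182 CPM, fell within the CONV range. mt-Cytb rose by 0.85 ± 0.29 (adjusted p = 0.0427), a call lost without any 1 of the 5 CONV libraries or FLASH 5, 6, 7 or 9 (adjusted p up to 0.0969).

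Cytochrome c oxidase, complex IV, takes its catalytic core from mt-Co1, mt-Co2 and mt-Co3. None of the 3 passed as deposited in FLASH against CONV, and mt-Co2 rose with its copies. mt-Co1 was at 0.65 ± 0.24 (adjusted p = 0.0637), with 18360 to 29400 CPM in FLASH and 12028 to 19013 CPM in CONV, which overlapped. mt-Co1 passed without control 2, control 6 or FLASH 4 (adjusted p down to 0.0294). mt-Co2 as deposited was at 0.17 ± 0.84 (adjusted p = 0.912), and the level of 1 library in each group set that spread, namely 2666 CPM in FLASH 2, 1828 CPM in CONV 7 and 1372 CPM in control 5, against at most 551 CPM in the others. With its copies, mt-Co2 was at 6717, 8171 and 10124 CPM in the lowest, median and highest FLASH library and at 5353, 4188, 5268, 6186 and 4460 CPM in the CONV libraries. Those groups did not overlap, and mt-Co2 rose by 0.73 ± 0.23 (adjusted p = 0.0288), a call lost without CONV 2, 3 or 7 or FLASH 7 or 9 (adjusted p up to 0.0729). mt-Co3 was at 0.14 ± 0.27 as deposited (adjusted p = 0.765) and at 0.21 ± 0.20 with its copy (adjusted p = 0.479).

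The ATP synthase takes 2 subunits of its membrane part from these genes. mt-Atp8 (chrM:7766-7969) was at 368, 445 and 545 CPM in the lowest, median and highest FLASH library and at 235, 199, 256, 262 and 172 CPM in the CONV libraries. The groups did not overlap, and mt-Atp8 rose by 0.98 ± 0.20 (adjusted p = 0.00273), or 1.97-fold. mt-Atp6 (chrM:7927-8607), which forms the proton path with the rotor ring, was at 0.42 ± 0.35 as deposited (adjusted p = 0.427). With its copy it was at 10836, 12175 and 15346 CPM in the lowest, median and highest FLASH library and at 7739, 6715, 7445, 9267 and 6893 CPM in the CONV libraries. Here too every FLASH library was above every CONV library, and mt-Atp6 rose by 0.77 ± 0.19 (adjusted p = 0.00819).

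In TMM-scaled CPM, 4 members as deposited had every FLASH library above every CONV library, namely mt-Nd1, mt-Nd2, mt-Atp8 and mt-Nd6. With the copies added there were 6, mt-Co2 and mt-Atp6 as well. Of all genes tested, 4.08% had every FLASH library above every CONV library. No member had every FLASH library below every CONV library, as 4.45% of all genes tested did. These separations depended in part on the scaling. Scaled by library totals, mt-Nd2 and mt-Nd6 overlapped between FLASH and CONV. With that scaling mt-Nd1 and mt-Atp8, and mt-Co2 and mt-Atp6 with their copies, still had every FLASH library above every CONV library. The calls of mt-Nd1, mt-Atp8, mt-Nd5 and mt-Nd6 held in every leave-one-out fit and with library totals. As deposited, that of mt-Nd1 also held under every other alternative, while those of mt-Nd5 and mt-Nd6 were lost with the replicate block. mt-Atp8, at 0.98, does not pass a log2 fold change over 1, and the fit with a replicate block is given with the other alternatives in the closing section.

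**Figure D4:**
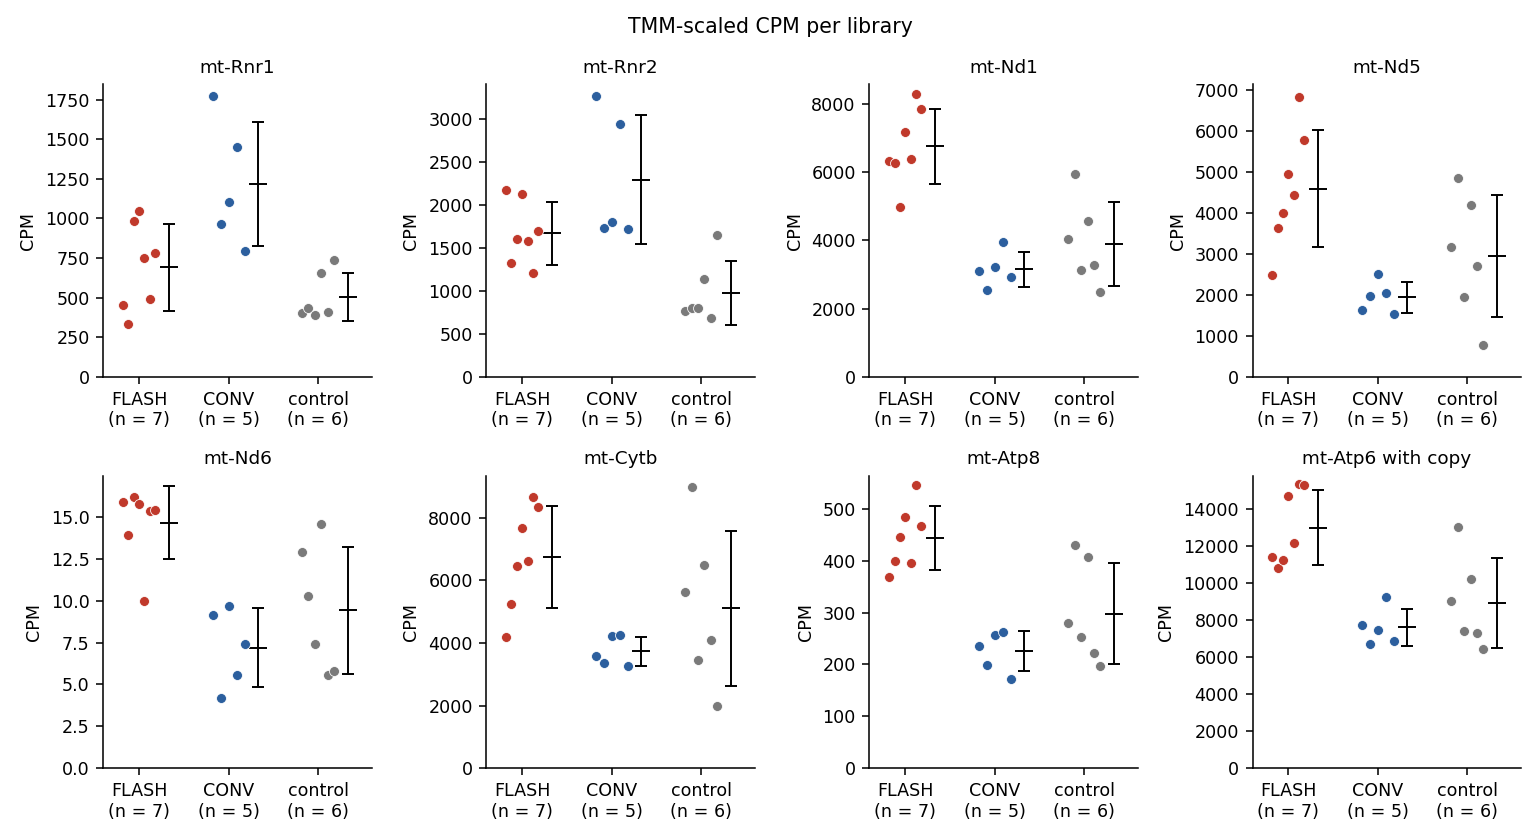
TMM-scaled CPM of 8 members in each library, with the mean ± SD at the right of each group. The means of the rRNA genes mt-Rnr1 and mt-Rnr2 were highest in CONV, though their FLASH and CONV libraries overlapped. mt-Nd1, mt-Nd6, mt-Atp8 and mt-Atp6 with its copy had all 7 FLASH libraries above all 5 CONV libraries.

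In FLASH against control, 5 of the 15 tested members rose as deposited and 7 with the copies added, with none lower. Of all genes tested, 37.7% were called in this comparison, 16.7% higher and 21.0% lower, so the share of members called as deposited, 33.3%, was near that of all genes in either direction and above that of genes called higher. All 15 members had a positive log2 fold change, 0.35 to 0.88 as deposited, with a median of 0.59 against -0.07 over all genes, but no member had its FLASH and control libraries apart, which held for 6.93% of all genes in the higher and 6.86% in the lower direction. Beside mt-Rnr2, the called genes were mt-Nd1 at 0.79 ± 0.19 (adjusted p = 0.00350), mt-Atp8 at 0.57 ± 0.18 (adjusted p = 0.0193), mt-Co3 at 0.88 ± 0.26 (adjusted p = 0.0123) and mt-Nd6 at 0.64 ± 0.24 (adjusted p = 0.0456). With the copies added, mt-Co2 rose by 0.57 ± 0.21 (adjusted p = 0.0396), mt-Atp6 by 0.54 ± 0.18 (adjusted p = 0.0202) and mt-Nd3 by 0.78 ± 0.21 (adjusted p = 0.00744), while mt-Co3 with its copy was at 0.46 ± 0.19 and no longer passed (adjusted p = 0.0579).

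These FLASH against control calls depended on the scaling. The TMM factors were 0.826 to 0.948 in FLASH, 0.844 to 1.11 in CONV and 1.06 to 1.25 in control, and a smaller factor raises the CPM of a library. With library totals the median of all genes moved to -0.44, 1381 genes were higher and 6550 lower (2719 and 3416 with TMM factors), and 0 of the 15 members were called by edgeR, with 2 at an unadjusted p under 0.05. DESeq2 with its size factors and limma-voom with TMM factors each called 6 of the 15 as higher. Of all 16257 genes, DESeq2 called 6726, with 3265 higher, and limma-voom called 6149, with 2769 higher. Under totals mt-Nd2 and mt-Nd4 turned to -0.04 and -0.02. The controls were also uneven. mt-Nd5, for instance, was at 2496, 4438 and 6831 CPM in the lowest, median and highest FLASH library and at 778, 2942 and 4860 CPM in the lowest, median and highest control library. Without control 2, the library with the highest mitochondrial share, 8 members were called (31.5% of all genes), with mt-Nd2 (0.60), mt-Co1 (0.74), mt-Nd5 (0.87) and mt-Cytb (0.67) added and mt-Nd6 lost. The call of mt-Nd6 was also lost without control 3, 5 or 6, CONV 7 or any FLASH library but FLASH 6 (adjusted p up to 0.0934). That of mt-Co2 with its copies was lost without control 3, 5 or 6 or FLASH 5, 6, 7 or 9 (up to 0.0888).

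In CONV against control no protein gene passed the test. Of the 13, 9 had a negative log2 fold change as deposited and 11 with the copies added, with medians of -0.39 and -0.39, against -0.04 over all genes. edgeR called 0 of them, with 1 at an unadjusted p under 0.05 as deposited (mt-Co3, 0.74 ± 0.28, adjusted p = 0.0589) and 2 with the copies added (mt-Nd3 and mt-Nd4l). limma-voom called 0 of them and DESeq2 called 1, mt-Co3. With library totals edgeR called 1, mt-Atp8, at -0.64 (adjusted p = 0.0335). mt-Nd1 was at -0.31 ± 0.21 (adjusted p = 0.276), mt-Nd4 at -0.64 ± 0.35 (adjusted p = 0.175) and mt-Nd4l with its copy at -0.85 ± 0.38 (adjusted p = 0.109). This count rested on control 6. Without it, mt-Nd2 (-0.68), mt-Atp8 (-0.50), mt-Nd4 (-0.83) and mt-Nd5 (-0.80) fell and mt-Co3 (0.92) rose, which with the 2 rRNA genes makes 7 members called, or 8 with the copies added. In that fit 40.1% of all 16173 genes tested were called, against 22.2% with control 6. Control 6 had the lowest share of mitochondrial counts (2.30%), a high rRNA share and the second lowest length slope. Its part in the result beyond these values was not tested.

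**Figure D5:**
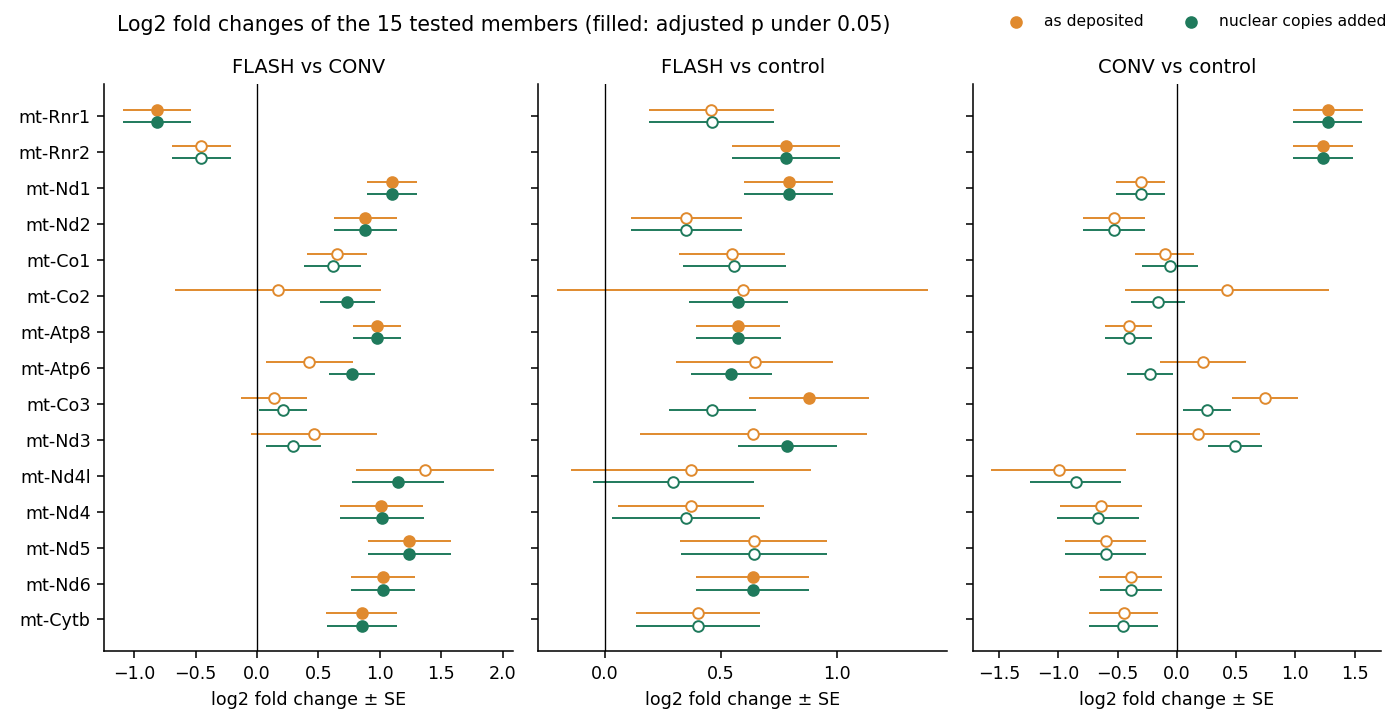
Log2 fold change ± SE of the 15 tested members, in genome order from the top, for FLASH against CONV, FLASH against control and CONV against control, from the counts as deposited (orange) and with nuclear copies added (green). Filled points passed an adjusted p of 0.05. mt-Rnr1 and mt-Rnr2 were higher in CONV than in control and had negative values in FLASH against CONV, where the 13 protein genes all had positive ones.

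The composition of the mitochondrial counts followed the same lines. Measured as a percent of the counts of all members and copies, mt-Nd1 held 7.57 ± 0.807% in FLASH (6.28 to 8.56%), 5.54 ± 0.261% in CONV (5.17 to 5.87%) and 6.33 ± 0.251% in control (6.06 to 6.71%). For mt-Nd1, CONV lay below both other groups without overlap, and FLASH overlapped control. The largest share belonged to mt-Co1, with 28.5 ± 0.819% in FLASH, 29.2 ± 0.635% in CONV and 27.7 ± 2.10% in control, and these overlapped. The shares of mt-Rnr1 and mt-Rnr2 were lower in every FLASH library than in every CONV library, and those of the other 12 members overlapped between FLASH and CONV.

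Per length, with the copies added, the mean levels of the protein genes on the plus strand exceeded those of the rRNA genes in FLASH and in control. mt-Atp6 had the highest mean level per kilobase, 19082 ± 2972 CPM per kb in FLASH, 11177 ± 1487 in CONV and 13081 ± 3554 in control. Next came mt-Co1, with 16552 ± 3138 CPM per kb in FLASH, 10812 ± 2034 in CONV and 11245 ± 4093 in control, which in each group was within 1 SD of mt-Atp6. mt-Co3 followed, with 13585 ± 1932 CPM per kb in FLASH, 11733 ± 3448 in CONV and 9856 ± 2097 in control, and then mt-Co2, with 12382 ± 2240 in FLASH, 7443 ± 1159 in CONV and 8315 ± 3050 in control. In CONV the order of the first 3 was therefore mt-Co3, mt-Atp6 and mt-Co1, all within their spread. The rRNA genes were near the low end, mt-Rnr2 with 1058 ± 231 CPM per kb in FLASH, 1450 ± 475 in CONV and 617 ± 233 in control. mt-Rnr1 had 725 ± 287 CPM per kb in FLASH, 1275 ± 412 in CONV and 527 ± 158 in control. In CONV the means of both lay above those of mt-Atp8 (1103 ± 189), mt-Nd5 (1066 ± 210) and mt-Nd4l (711 ± 166). The means of these 3 lay above those of the rRNA genes in FLASH (2174 ± 299, 2517 ± 782 and 1576 ± 490) and in control (1461 ± 477, 1615 ± 813 and 1284 ± 769). The order differed in control 6, where mt-Rnr2 (1046 CPM per kb) lay above mt-Atp8 (968), mt-Nd5 (427) and mt-Nd4l (288). In FLASH 1, mt-Rnr2 (1374 CPM per kb) lay above mt-Nd5 (1369) and mt-Nd4l (732). The lowest was mt-Nd6, whose plus-strand neighbours are mt-Nd5 and mt-Cytb, with 28.2 ± 4.19 CPM per kb in FLASH, 13.9 ± 4.51 in CONV and 18.2 ± 7.29 in control.

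The 22 tRNA genes were at the floor. They span 59 to 75 bases, less than the 100-base reads. Of them 21 had 0 counts in every library, and mt-Tr, the arginine tRNA, had 1 count in 1 CONV library. A count of 0 allows up to 3 counts, or 0.0993 to 0.150 CPM depending on the library, for counting error only.

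Nuclear genes that make and handle mitochondrial RNA were described from lists chosen with earlier results of these data known. Their counts are to be read against all genes tested, of which 9.88% were higher and 9.91% lower in FLASH than in CONV, 16.7% and 21.0% in FLASH than in control, and 10.2% and 12.0% in CONV than in control. Of 16 tested genes for transcription and replication of the circle, 0 were higher and 5 lower in FLASH than in CONV, 1 higher and 2 lower in FLASH than in control, and 1 higher and 0 lower in CONV than in control, with medians of -0.34, -0.12 and 0.20. Mgme1, an exonuclease of mitochondrial DNA maintenance, was at 4.32 ± 1.05 CPM in FLASH, 7.51 ± 1.07 in CONV and 7.93 ± 1.46 in control, and fell in FLASH against CONV by 0.80 ± 0.19 (adjusted p = 0.00672) and against control by 0.88 ± 0.18 (adjusted p = 0.000911). Mterf3, which represses transcription of the circle, fell in FLASH against CONV by 0.63 ± 0.19 (adjusted p = 0.0282), with 13.5 ± 2.08 CPM in FLASH, 20.8 ± 4.54 in CONV and 14.3 ± 4.72 in control. Of 21 tested genes for processing, stability and decay of mitochondrial RNA, 0 were higher and 6 lower in FLASH than in CONV, 1 higher and 5 lower in FLASH than in control, and 2 higher and 1 lower in CONV than in control. The 5 lower of 21 in FLASH against control are 23.8%, close to the 21.0% over all genes. Pnpt1, the polynucleotide phosphorylase, was at 15.5 ± 2.59 CPM in FLASH, 26.3 ± 4.04 in CONV and 25.8 ± 3.25 in control, and fell in FLASH against CONV by 0.77 ± 0.14 (adjusted p = 0.00162). Supv3l1, its helicase partner, fell in FLASH against CONV by 0.62 ± 0.15 (adjusted p = 0.00671), and Rexo2, which degrades short RNA fragments, by 0.81 ± 0.15 (adjusted p = 0.00183). Lrpprc, which stabilises mitochondrial mRNAs, was lower in both irradiated groups than in control, by 1.16 ± 0.23 in FLASH (adjusted p = 0.000651) and 0.95 ± 0.25 in CONV (adjusted p = 0.0128). Grsf1, an RNA-binding protein of mitochondrial RNA granules, rose in both, by 0.79 ± 0.14 in FLASH (adjusted p = 0.000253) and 0.59 ± 0.15 in CONV (adjusted p = 0.00937).

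Among 6 regulators of mitochondrial biogenesis, Ppargc1a, the coactivator PGC-1α, rose in FLASH against CONV by 1.14 ± 0.24 (adjusted p = 0.00368) and against control by 0.94 ± 0.22 (adjusted p = 0.00289), with 79.5 ± 26.2 CPM in FLASH, 36.2 ± 9.89 in CONV and 41.3 ± 7.08 in control. It was the only one of the 6 called in FLASH against CONV. In FLASH against control Pprc1, a related coactivator, fell, at -0.95 ± 0.36 (adjusted p = 0.0470). In CONV against control Esrra, the nuclear receptor ERRα, rose by 0.81 ± 0.23 (adjusted p = 0.0189), and Ppargc1b (-1.11 ± 0.34, adjusted p = 0.0260) and Gabpa (-0.31 ± 0.11, adjusted p = 0.0477) fell. Of the 78 mitochondrial ribosomal proteins, the partners of the rRNAs, 0 were higher and 20 lower in FLASH than in CONV (median -0.46), 2 higher and 7 lower in FLASH than in control (median -0.07), and 13 higher and 0 lower in CONV than in control (median 0.43). The 20 lower are 25.6% of the list, against 9.91% of all genes, and the 13 higher are 16.7%, against 10.2%. Mrpl15, of the large subunit, was at 49.3 ± 12.9 CPM in FLASH, 98.8 ± 18.6 in CONV and 55.2 ± 19.3 in control, and rose in CONV against control by 0.84 ± 0.22 (adjusted p = 0.0133). Mrps6 rose against control in both irradiated groups, by 1.52 ± 0.26 in CONV (adjusted p = 0.000684) and 1.39 ± 0.24 in FLASH (adjusted p = 0.000262). The summed level of the 78 was also high in control 6, at 3580 CPM against a control median of 1804. FLASH 1, at 3052 CPM, and CONV 6, at 4023 CPM, were likewise the highest of their groups, against medians of 2054 CPM in FLASH and 3071 CPM in CONV. These libraries had the lowest length slope of their groups.

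For the nuclear subunits of the same complexes the counts stand against 19.8% of all genes called in FLASH against CONV, 37.7% in FLASH against control and 22.2% in CONV against control. In FLASH against CONV, complex I had 0 of 37 tested nuclear subunits higher and 1 lower, complex III 0 of 9 in either direction, complex IV 0 of 14 higher and 1 lower, complex V 0 of 16 in either direction, and complex II 0 of 4. Their medians were -0.17, -0.06, 0.02, -0.08 and 0.03, against -0.02 over all genes. Against control the medians were higher. In the same order they were 0.24, 0.36, 0.47, 0.37 and 0.44 in FLASH against control, where that of all genes was -0.07. In CONV against control they were 0.52, 0.48, 0.47, 0.35 and 0.40, where that of all genes was -0.04. In FLASH against control 2 of complex III (Uqcrc1 and Uqcrfs1), 1 of complex IV (Cox6c) and 2 of complex V (Atp5a1 and Atp5d) rose and none fell. In CONV against control 3 of complex I (Ndufa6, Ndufs3 and Ndufb6) and 1 of complex IV (Cox6b2) rose and none fell. The summed level of the complex I subunits was highest within each group in FLASH 1 (5402 CPM, median 2985), CONV 6 (5788, median 3955) and control 6 (5228, median 2313). These libraries, with the lowest length slope of their groups, were also the highest for complexes II, III, IV and V. Whether the nuclear and mitochondrial subunits differ in their response was not tested.

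Markers of the cells in the tissue moved between the groups as well. The 12 absorptive enterocyte markers summed to 68666 to 110549 CPM in FLASH, 60336 to 106455 in CONV and 21649 to 44173 in control. Of them 8 were higher in FLASH than in control (16.7% of all genes were), 6 higher in CONV than in control (10.2% of all genes), and 3 higher and 1 lower in FLASH than in CONV (9.88% and 9.91% of all genes). The 8 crypt and cycling markers summed to 111 to 245 CPM in FLASH, 141 to 257 in CONV and 831 to 1359 in control. Smooth muscle markers summed to 381 to 1182 CPM in FLASH, 165 to 1125 in CONV and 1147 to 3411 in control, and all 8 were lower in FLASH than in control, as were 21.0% of all genes. The 8 lymphocyte and plasma cell markers summed to 756 to 1928 CPM in FLASH, 538 to 1788 in CONV and 4792 to 10022 in control. Endothelial markers summed to 123 to 297 CPM in FLASH, 84.0 to 140 in CONV and 71.3 to 579 in control, and erythroid markers to 21.2 to 55.4 CPM in FLASH, 25.5 to 71.2 in CONV and 18.9 to 95.7 in control. No defining marker of these 6 lists was at 0 in every library. FLASH and CONV overlapped in the summed level of each of these lists, but single markers differed between them. Mttp (0.89), Apob (1.33) and Alpi (0.81) were higher in FLASH than in CONV, and Fabp2 (-0.82) was lower. Of the 8 crypt and cycling markers 0 were higher and 2 lower, Ascl2 (-1.89) and Smoc2 (-0.59). The part of cell composition in the differences of the mitochondrial genes was not tested.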

How the data were processed

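RNA from whole jejunum (250 ng per library) was made into stranded mRNA libraries and read as 100-base single ends, per the labels' protocols. STAR, Salmon, edgeR 3.40.2, limma 3.54.2 and mm10 are named in the submitters' processing notes, without their order. The authors deposited estimated counts for 54532 genes in 18 libraries, of which 9.79% of values were not whole, and a table of log2 values for 19193 genes, which holds the 13 mitochondrial protein genes and was used here only for an alternative.

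The deposited estimated counts were rounded and tested with edgeR 4.0.16 in R 4.3.3 (filterByExpr, TMM factors, robust quasi-likelihood fit over all 3 groups, Benjamini-Hochberg adjustment over 16257 genes, threshold 0.05). CPM are scaled by the TMM factors. Nuclear copies were genes that BLAST+ 2.17.0 aligned to a mitochondrial gene at 90% identity or more, over at least 100 bases and 80% of the copy. The length slope was taken over 8926 genes. Intervals and limits cover counting error only. The steps were tested on simulated data. Alternatives included library totals, DESeq2 1.42.0, limma 3.58.1 (voom, trend), a length offset, a replicate block and leaving out each library.

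The members and gene lists were chosen with earlier results of these data known. Any member could be named, and of each other list up to 4 genes with the smallest p in a comparison. No libraries were duplicates (lowest chi-square per degree of freedom 23.3). Of 13 same-numbered pairs, 3 had a correlation of deviations over 0.1 (range -0.27 to 0.606), so numbers were not taken as pairs.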

Additional observations from a re-analysis of the deposited data

Results flagged for a closer look

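In 5 of 81 groups of values, 1 library stood far from the others of its group by Dixon's criterion, and chance gives about 1 in 20. For mt-Co2 as deposited these were FLASH 2 at 2666 CPM (next 447 CPM), CONV 7 at 1828 CPM (next 509 CPM) and control 5 at 1372 CPM (next 551 CPM). In the same libraries the nuclear copies held 60.5, 59.0 and 70.0% of the combined counts, the lowest of each group. For mt-Nd6, FLASH 6 was at 9.99 CPM (next 13.9 CPM). The rRNA share of the mitochondrial counts and copies was 5.95% in control 6, where the next control library was at 2.56%.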

How the results depend on the processing

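Of 663 values of single genes under alternatives other than leaving out a library, 52 lost the call, 30 gained it, 13 changed sign and the others kept direction and side of the threshold. The cause was not tested. Members called in FLASH against control numbered 0 with library totals, 2 with the replicate block and 0 with a log2 fold change over 1 in addition. In FLASH against CONV they numbered 2 with the block and 4 with the fold threshold. With the block, mt-Nd1 (adjusted p = 0.0361) and mt-Atp8 (0.0388) passed, as deposited and with the copies added, and mt-Rnr1, mt-Nd2, mt-Nd4, mt-Nd5 (0.118), mt-Nd6 (0.0519) and mt-Cytb, and with copies mt-Co2, mt-Atp6 (0.0901) and mt-Nd4l, did not. In CONV against control they numbered 6, with 3 higher and 3 lower, without control 6, CONV 6 and FLASH 1 together, an alternative chosen after seeing the data. That fit called 5288 of all 16385 genes tested, against 3615 of 16257 in the main fit. With limma-trend on the authors' log2 values, which hold no rRNA gene, 0 members were called, against 2949 of 19193 genes. With the copies added the counts were 0 (totals), 4 (length offset) and 2 (block) in FLASH against control, 7 (totals) and 2 (block) in FLASH against CONV, and 6 without those 3 libraries in CONV against control. Over all 16257 genes as deposited, the block gave 1569 calls in FLASH against CONV and 4279 in FLASH against control. The fold threshold gave 1347 in FLASH against CONV, 3198 in FLASH against control and 1970 in CONV against control. With the copies added, over 16248 genes, FLASH against control had 7927 (totals), 6860 (length offset) and 4276 calls (block). FLASH against CONV then had 3726 (totals) and 1566 (block). Without those 3 libraries, CONV against control had 5288 calls of 16376 genes. Of 18 libraries, 4 correlated best with their own number.

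Sign changes were all in values that did not pass. In CONV against control, mt-Atp6 was at -0.042 (totals), -0.069 (block), -0.061 (length offset) and -0.23 (copies added), mt-Co2 at -0.42 (block) and -0.16 (copies added), and mt-Co3 with its copy at -0.037 (length offset). In FLASH against control with totals, mt-Nd2 was at -0.041, mt-Nd4 at -0.018, mt-Nd4 with its copy at -0.042 and mt-Nd4l with its copy at -0.092, and mt-Co2 was at -0.16 with the block. In FLASH against CONV mt-Co2 was at -0.010 with totals.

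Leaving out 1 library gave 4 to 10 members called in FLASH against CONV, 4 to 8 in FLASH against control and 2 to 7 in CONV against control (5 to 12, 5 to 11 and 2 to 8 with the copies added), and over all genes 2171 to 3993, 5074 to 7164 and 1869 to 6493. Differences in mitochondrial share were 1.42 to 1.95, 0.0747 to 1.20 and -1.60 to -0.48 percentage points. Log2 fold changes that crossed 0 were those of mt-Co2 (-0.87 to 1.28, -0.44 to 1.48 and -0.69 to 1.27), of mt-Co3 in FLASH against CONV (-0.0074 to 0.41), and in CONV against control of mt-Co1 (-0.24 to 0.053, with copies -0.18 to 0.093) and mt-Nd3 (-0.048 to 0.61). Counts of the tRNA genes were at the floor, and the division of reads with nuclear copies limits mt-Co2, mt-Co3, mt-Atp6, mt-Nd3 and mt-Nd4l.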
